A study of Mus musculus with 20 samples.

Results

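Roxadustat, a drug against the anemia of kidney disease, inhibits the enzymes through which oxygen destroys hypoxia-inducible factor (HIF). Kidney cells of mice injected with it were compared with those of control mice directly after isolation, with no culture in between. The comparison uses 4 of the 20 libraries of the series, 2 of roxadustat and 2 of control mice, all labelled day 0. The mice of the treated group received roxadustat into the peritoneum for 7 days at 33 mg/kg, and the labels do not say what control mice were given. In both groups the kidney was digested and cells carrying Sca-1, a surface protein encoded by Ly6a, were taken with magnetic beads. The labels call these cells mesenchymal stem cell-like and give no strain, sex or age. Whether the replicates come from different animals or from a single pool is not given in the labels. The spread behind the p-values may therefore be technical, and it is pooled over all 20 libraries. The series asks whether the interstitial cells that make erythropoietin become more numerous under the drug. Its other 16 libraries came from cells cultured for 7 or 21 days, with roxadustat in the medium or without it (4 libraries each). They enter the estimate of the spread and a last comparison.

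As background, HIF is a transcription factor whose alpha subunits are destroyed while oxygen lets the prolyl hydroxylases Egln1, Egln2 and Egln3 act on them. When the hydroxylases are blocked, HIF persists and binds DNA at a core of the letters ACGTG or GCGTG in its target genes. Targets known from many tissues turn glucose into lactate, hold down the entry of pyruvate into mitochondria, regulate pH, crosslink collagen, recruit vessels and supply iron. In the kidney, erythropoietin comes from fibroblast-like cells between the tubules. These lie beside a far larger mass of tubule epithelium and among endothelial cells, macrophages and pericytes.

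The 4 libraries held 15974511 to 19562899 counts. A gene was called when edgeR's adjusted p was under 0.05 in the fit of all 20 libraries, and levels are CPM, counts relative to the scaled library total, given for replicate 1 and then replicate 2. Values after ± are standard errors from the fit of all libraries. Gene coordinates are those of GRCm38. Of 18731 tested genes, 1280 (6.83%) were called, 511 higher (2.73%) and 769 lower (4.11%) in roxadustat cells. Scaled by library size alone, the calls were 699 higher and 524 lower, so the share of higher calls moved from 39.9% to 57.2%. The spread within the control pair (biological coefficient of variation 16.2%) was larger than in the roxadustat pair (9.01%) and in each cultured group (4.07% to 9.11%). In the fit of all libraries the groups share the same spread per gene, so its p-values rest largely on the cultured libraries. A fit of the 4 fresh libraries alone, with 15575 genes tested, called 23 genes (0.148%), 19 higher (0.122%) and 4 lower (0.0257%). Of these, 22 were also called in the fit of all libraries. Without control replicate 1 the calls were 639 higher and 975 lower, without control replicate 2 they were 610 and 681, without roxadustat replicate 1 they were 299 and 269, and without roxadustat replicate 2 they were 385 and 502. Altogether 328 genes (173 higher, 155 lower) were called with all libraries and also without each of the 4 in turn.

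Control replicate 2 stood apart from the other 3 libraries. In it, 14 genes of at least 5 CPM were 5 or more times above each of the others and 5 genes were 5 or more times below, whereas no other fresh library had such a gene. Ugt1a10, a glucuronosyltransferase, was at 0.584 and 73.9 CPM in control and 0.729 and 0.38 CPM in roxadustat libraries. Ftcd, an enzyme of histidine breakdown, was at 7.92 and 114 CPM in control and 8.61 and 10.2 CPM in roxadustat libraries. Vcp-rs, a processed pseudogene, was at 1.23 and 36.5 CPM in control and 1.72 and 1.83 CPM in roxadustat libraries but in the 16 cultured libraries it lay between 33.9 and 45.9 CPM. Of these genes, 8 were called lower with roxadustat in the fit of all libraries, and each of those calls ended without control replicate 2. These genes were singled out after their values were seen. The main list counts below are therefore given with and without it.

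**Figure D1:**
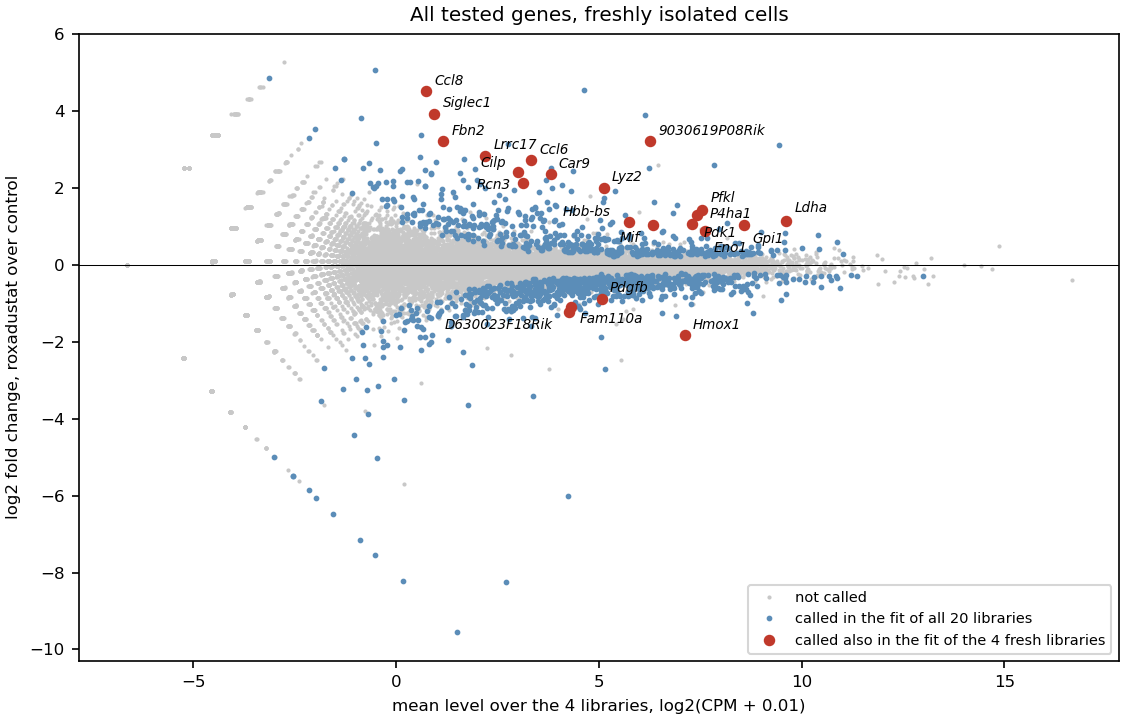
Fitted log2 fold change of roxadustat over control (vertical axis) against the mean level of the 4 fresh libraries (log2 of CPM + 0.01, horizontal axis) for each of the 18731 tested genes. Blue points are the genes called in the fit of all 20 libraries, and the 22 red points, 18 above and 4 below 0, are also called in the fit of the 4 fresh libraries.

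The 22 genes called in both fits did not overlap between groups, as was so for 20.1% of all tested genes with roxadustat above and 22.2% with roxadustat below control. It was also so for 1260 of the 1280 genes called in the fit of all libraries. For a called gene, here and below, lack of overlap is therefore a description and no further support. Each of the 22 remained called without any 1 of the 4 libraries (largest adjusted p 0.013). They hold 7 HIF target and glycolysis genes (Car9, P4ha1, Pfkl, Gpi1, Eno1, Ldha and Pdk1) and 5 genes of secreted proteins or their secretion (Lrrc17, Rcn3, Fbn2, Cilp and Mif). A further 4 are macrophage and chemokine genes (Ccl6, Ccl8, Lyz2 and Siglec1). The remaining rises are the globin gene Hbb-bs and 9030619P08Rik, annotated as a transcribed pseudogene. The 4 falls are Hmox1, Pdgfb, Fam110a and D630023F18Rik. Mif, a cytokine gene with close pseudogenes and therefore an uncertain level, was at 54.1 and 51.3 CPM in control and 109.9 and 106 CPM in roxadustat libraries. Fam110a was at 27.0 and 26.8 CPM in control and 12.3 and 13.2 CPM in roxadustat libraries and D630023F18Rik at 27.1 and 26.9 CPM in control and 10.4 and 12.6 CPM in roxadustat libraries. In each of these 3 the replicates were nearer to each other than the groups. This grouping was made after the genes were known.

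Genes of the HIF response come first, with the promoters of 4 of the clearest rises, to show where the letters that HIF binds lie in them. In the RefSeq promoter windows of GRCm38.p6, which run from 250 bases before to 50 bases after a start site, ACGTG or GCGTG on either strand was present in 63.6% of the 12402 tested genes with a window. Capitals mark these letters, written as CACGT or CACGC where they lie on the other strand. Car9 and P4ha1 are HIF targets outside glycolysis and Pfkl and Ldha are glycolytic enzymes. The windows are chr4:43506776-43507075 for Car9, chr10:59323046-59323345 for P4ha1 and chr7:46845554-46845853 for the first of 2 Ldha starts, all on the plus strand, and chr10:78009758-78010057 on the minus strand for Pfkl.
Car9: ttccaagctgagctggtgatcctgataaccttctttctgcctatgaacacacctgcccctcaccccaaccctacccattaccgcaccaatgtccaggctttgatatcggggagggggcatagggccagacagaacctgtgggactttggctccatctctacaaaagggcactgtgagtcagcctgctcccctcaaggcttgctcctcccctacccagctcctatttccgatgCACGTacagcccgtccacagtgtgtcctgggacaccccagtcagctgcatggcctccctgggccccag
P4ha1: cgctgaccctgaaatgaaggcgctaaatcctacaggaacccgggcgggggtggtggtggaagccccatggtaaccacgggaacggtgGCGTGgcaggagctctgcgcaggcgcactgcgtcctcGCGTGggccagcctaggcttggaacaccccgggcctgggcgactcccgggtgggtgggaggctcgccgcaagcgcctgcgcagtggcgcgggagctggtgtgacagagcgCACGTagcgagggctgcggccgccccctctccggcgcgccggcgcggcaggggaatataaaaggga
Pfkl: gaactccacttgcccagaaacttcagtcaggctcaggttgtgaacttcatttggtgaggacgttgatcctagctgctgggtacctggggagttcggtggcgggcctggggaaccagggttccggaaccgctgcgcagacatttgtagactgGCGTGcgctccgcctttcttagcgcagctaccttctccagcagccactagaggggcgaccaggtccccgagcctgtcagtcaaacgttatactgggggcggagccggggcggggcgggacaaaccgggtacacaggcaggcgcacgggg
Ldha: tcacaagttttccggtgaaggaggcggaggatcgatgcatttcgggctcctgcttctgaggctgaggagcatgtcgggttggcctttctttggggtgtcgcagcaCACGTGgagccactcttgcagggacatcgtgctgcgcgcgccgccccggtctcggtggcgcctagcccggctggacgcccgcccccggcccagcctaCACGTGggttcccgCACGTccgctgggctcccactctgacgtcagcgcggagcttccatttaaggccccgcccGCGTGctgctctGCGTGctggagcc

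Car9 and Pfkl hold 1 match each, P4ha1 holds 3 and the Ldha window 7, of which 2 pairs overlap as CACGTG. Of the HIF targets called higher, 9 have a window and all 9 hold a match, as do 15 of 15 that were not called and 3 of 5 called lower. Of the glycolysis genes called higher 8 of 10 hold a match, as do 4 of 4 called lower and 11 of 12 not called. The higher genes without a match are Gpi1, which was called in both fits, and Tpi1, and neither window is printed here. ACGTG alone is in 27.6% of tested genes with a window, in 8 of the 9 HIF targets called higher in 2 of 5 called lower and in 11 of the 15 not called. It is in 5 of the 10 glycolysis genes called higher, 3 of 4 called lower and 8 of 12 not called. Among all genes called higher 58.9% hold either core, and among those called lower 66.7%. The letters therefore do not separate the called from the uncalled members of these lists. A match is a description of the sequence and says nothing on whether HIF bound there.

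Of 41 tested HIF targets outside glycolysis, 16 were higher and 6 lower with roxadustat, shares of 39.0% and 14.6% against 2.73% and 4.11% of all genes. Their median log2 fold change was 0.17, or 0.10 without control replicate 1 and 0.24 without control replicate 2, and -0.01 over all tested genes. Without control replicate 1 the counts were 14 and 7, without control replicate 2 they were 16 and 4, and without roxadustat replicates 1 and 2 they were 11 and 4 and 14 and 5. The higher ones include oxygen sensors, collagen-modifying enzymes and mitochondrial proteins, and the lower ones include transcriptional repressors. Of the higher ones P4ha1, Lox, Plod2 and Loxl2 are counted again in the list of crosslinking genes below.

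The HIF prolyl hydroxylase genes, which are both the drug's targets and themselves HIF targets, rose for 2 of 3 members. Egln1, the main oxygen sensor, was at 75.1 and 74.5 CPM in control and 102 and 94.6 CPM in roxadustat libraries (chromosome 8, 124908587 to 124949324; log2 fold change 0.40 ± 0.07, adjusted p = 0.000683). Egln3 was at 5.71 and 6.58 CPM in control and 11.3 and 9.66 CPM in roxadustat libraries (0.78 ± 0.16, adjusted p = 0.00242), and this call ended without roxadustat replicate 1 (adjusted p = 0.0706). Egln2 was not called, at 64.0 and 82.7 CPM in control and 64.8 and 57.1 CPM in roxadustat libraries (adjusted p = 0.118). In both called genes the roxadustat libraries lay above the control libraries. The transcripts of the alpha subunits were not called, with Hif1a at 192 and 224 CPM in control and 182 and 177 CPM in roxadustat libraries (adjusted p = 0.0872) and Epas1, the subunit called HIF-2 alpha, at 39.6 and 45.4 CPM in control and 27.8 and 26.2 CPM in roxadustat libraries (adjusted p = 0.157). Vhl, which carries hydroxylated HIF to degradation, was at 27.7 and 23.1 CPM in control and 29.7 and 28.7 CPM in roxadustat libraries (adjusted p = 0.29). Hif1a was called lower without control replicate 1 (adjusted p = 0.00839), and Egln2 likewise (adjusted p = 0.00487).

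Car9, a carbonic anhydrase of the cell surface that acidifies the surroundings (chromosome 4, 43506966 to 43513729), had the second-largest fold change of the list. It was at 4.09 and 5.00 CPM in control and 25.9 and 21.1 CPM in roxadustat libraries, a log2 fold change of 2.37 ± 0.16 (adjusted p = 9.93e-11, and 0.0124 in the fit of the fresh libraries). The other carbonic anhydrase of the list, Car12, went the other way, at 380.3 and 323 CPM in control and 256 and 259 CPM in roxadustat libraries (-0.45 ± 0.08, adjusted p = 0.000858). Its groups did not overlap, and the fit of the fresh libraries did not call it (adjusted p = 0.218).

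Enzymes that modify and crosslink collagen were among the strongest HIF targets. P4ha1, the catalytic subunit of collagen prolyl hydroxylase (chromosome 10, 59323296 to 59373304), was at 102 and 98.3 CPM in control and 244 and 246 CPM in roxadustat libraries, so replicates differed far less than groups. Its log2 fold change was 1.29 ± 0.08 (adjusted p = 1.36e-11, and 0.0117 in the fresh libraries alone). Its paralog P4ha2 was not called (23.8 and 28.0 CPM in control and 27.2 and 33.2 CPM in roxadustat libraries, adjusted p = 0.225). Lox, lysyl oxidase, which crosslinks collagen and elastin, was at 3.44 and 9.41 CPM in control and 30.9 and 39.2 CPM in roxadustat libraries (2.45 ± 0.22, adjusted p = 5.56e-07), and Plod2, which hydroxylates collagen lysines, at 79.7 and 90.6 CPM in control and 144 and 144 CPM in roxadustat libraries (0.75 ± 0.09, adjusted p = 2.73e-06). The control libraries differed more from each other in Lox than in the other genes of this group, and neither Lox nor Plod2 was called in the fresh libraries alone (adjusted p = 0.207 and 0.0599).

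Further HIF targets that rose include Bnip3, Fam162a and Ankrd37. Bnip3, which directs mitochondria to autophagy, was at 60.2 and 73.7 CPM in control and 118 and 126 CPM in roxadustat libraries (0.87 ± 0.12, adjusted p = 3.53e-05). Fam162a, a mitochondrial protein induced by HIF, was at 37.0 and 35.5 CPM in control and 59.7 and 58.1 CPM in roxadustat libraries (0.70 ± 0.08, adjusted p = 7.67e-07). Ankrd37 was at 2.92 and 2.24 CPM in control and 6.56 and 6.31 CPM in roxadustat libraries (1.32 ± 0.20, adjusted p = 0.000102), with 26.4% of its exon bases shared with another gene, so part of its counts may not be its own. All 3 genes had roxadustat libraries above control libraries and adjusted p between 0.0599 and 0.127 in the fresh libraries alone.

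Among other genes that HIF is known to induce, calls differed. Apln, the vessel-acting peptide apelin, listed here with the VEGF system, was at 6.04 and 6.06 CPM in control and 12.5 and 15.4 CPM in roxadustat libraries (1.20 ± 0.18, adjusted p = 9.69e-05). Vegfa, the main vessel growth factor, was at 316 and 307 CPM in control and 336 and 364 CPM in roxadustat libraries and was not called (adjusted p = 0.149), nor were Adm, adrenomedullin (18.3 and 31.9 CPM in control and 22.3 and 18.9 CPM in roxadustat libraries, adjusted p = 0.416, but lower at 0.00167 without control replicate 1), and Ndrg1 (2576 and 2377 CPM in control and 2778 and 2030 CPM in roxadustat libraries, adjusted p = 0.877). For Vegfa the groups did not overlap, but the difference was small, and scaling by library size alone brought it to an adjusted p of 0.0494. Epo itself had no count in any of the 4 libraries, which allows at most 0.195 to 0.228 CPM in each (3 counts, counting error only), so no difference in it was detectable at this depth.

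The 6 lower members include the helix-loop-helix repressors Bhlhe40 and Bhlhe41, which HIF induces in other cells. Bhlhe40 was at 422 and 471 CPM in control and 294 and 323 CPM in roxadustat libraries (-0.53 ± 0.09, adjusted p = 0.00023) and Bhlhe41 at 4.41 and 3.23 CPM in control and 0.795 and 1.22 CPM in roxadustat libraries (-1.94 ± 0.30, adjusted p = 0.00012). Both remained called without each of the 4 libraries, and neither was called in the fresh libraries alone (adjusted p = 0.173 and 0.139). The other lower ones were Car12, the iron genes Cp and Tfrc, and the chemokine receptor gene Cxcr4.

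**Figure D2:**
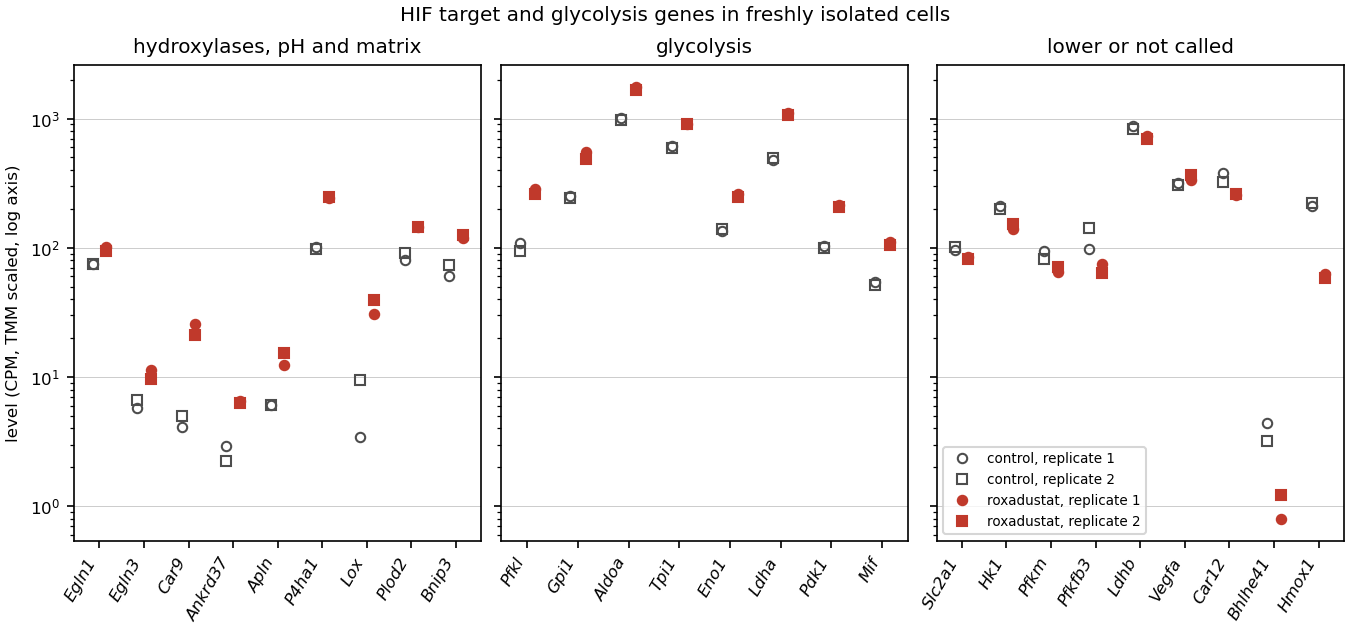
Levels of single genes in the 4 fresh libraries (CPM after scaling, log axis), with open grey symbols for control, filled red symbols for roxadustat, circles for replicate 1 and squares for replicate 2. Red lies above grey in the left and middle panels, for example 25.9 and 21.1 against 4.09 and 5.00 CPM for Car9, while in the right panel Hmox1 drops from 211 and 222 to 62.9 and 58.7 CPM.

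Glycolysis genes moved in opposite directions within 1 pathway, with 10 of 27 higher, 4 lower (37% and 14.8%, against 2.73% and 4.11% of all genes) and a median log2 fold change of 0.01. Left out in turn, control replicates 1 and 2 and roxadustat replicates 1 and 2 gave 10 higher and 2 lower, 11 and 6, 10 and 2, and 10 and 3. The higher genes span most steps from fructose phosphate to lactate. Of the lower ones, Pfkm and Ldhb encode isoforms of enzymes with another higher gene, Hk1 the entry enzyme and Pfkfb3 a regulator.

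At the entry of glucose nothing rose. Slc2a1, the glucose transporter GLUT1, was at 96.0 and 101 CPM in control and 84.3 and 81.2 CPM in roxadustat libraries (adjusted p = 0.0627). Hk1, the hexokinase of most tissues, was lower at 210.1 and 199.6 CPM in control and 139.8 and 152 CPM in roxadustat libraries (-0.49 ± 0.10, adjusted p = 0.00332), a call that ended without roxadustat replicate 1 (adjusted p = 0.0733), and Hk2, the hexokinase known as a HIF target, was not called at 7.53 and 15.7 CPM in control and 10.7 and 15.4 CPM in roxadustat libraries (adjusted p = 0.775). Of the 4 omissions, that of control replicate 2 led to a higher call of Hk2 (adjusted p = 0.00267).

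The following steps rose. Gpi1, which turns glucose phosphate into fructose phosphate (chromosome 7, 34201330 to 34230336), was at 253 and 245 CPM in control and 548 and 482 CPM in roxadustat libraries (1.05 ± 0.08, adjusted p = 1.55e-09). Pfkl, the liver-type phosphofructokinase (chromosome 10, 77986947 to 78010083), was at 109 and 94.2 CPM in control and 287 and 259 CPM in roxadustat libraries (1.42 ± 0.09, adjusted p = 1.36e-11), whereas the muscle-type isoform Pfkm was at 95.2 and 81.5 CPM in control and 65.1 and 70.6 CPM in roxadustat libraries (-0.38 ± 0.08, adjusted p = 0.00231). The isoforms of this committed step thus went opposite ways, Pfkm with its call ending without control replicate 1 and without roxadustat replicate 1 (adjusted p = 0.0577 and 0.0701). Pfkfb3, whose product makes the activator of phosphofructokinase, was lower at 97.5 and 142 CPM in control and 74.3 and 64.0 CPM in roxadustat libraries (-0.79 ± 0.13, adjusted p = 0.000403).

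Among enzymes of the later steps, Aldoa was at 1016 and 966 CPM in control and 1758 and 1674 CPM in roxadustat libraries (0.79 ± 0.08, adjusted p = 2.24e-07), Tpi1 at 614 and 595 CPM in control and 912 and 905 CPM in roxadustat libraries (0.59 ± 0.10, adjusted p = 0.000272) and Eno1, enolase, at 136 and 140.5 CPM in control and 262 and 246 CPM in roxadustat libraries (0.88 ± 0.08, adjusted p = 1.06e-08). The groups did not overlap in any of the 3. Pgk1 (0.64 ± 0.14) and Pgam1 (0.83 ± 0.13) also rose, and Gapdh was not called (19.7 and 24.5 CPM in control and 29.9 and 25.5 CPM in roxadustat libraries, adjusted p = 0.062). It was higher without either of the replicates numbered 2 (adjusted p = 0.00954 without that of control and 0.0369 without that of roxadustat) and with library size as the only scaling (0.03). These 3 genes have many processed pseudogenes in the mouse, and reads that fit several copies may have been lost from them, so their levels are uncertain.

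At the end of the pathway the genes of a lactate-forming enzyme and of a regulator were higher. Ldha, the lactate dehydrogenase that favours lactate (chromosome 7, 46841475 to 46855627), was at 477 and 491 CPM in control and 1095 and 1068 CPM in roxadustat libraries (1.16 ± 0.09, adjusted p = 2.38e-09, and 0.0259 in the fresh libraries alone). Ldhb, the isoform that favours pyruvate, was at 879.7 and 829 CPM in control and 731 and 693 CPM in roxadustat libraries (-0.26 ± 0.07, adjusted p = 0.0175), a call that ended without control replicate 1 and without roxadustat replicate 2 (adjusted p = 0.0869 and 0.146) and after scaling by library size alone (0.0632). Pdk1, the kinase that closes pyruvate dehydrogenase (chromosome 2, 71873224 to 71903858), was at 103 and 99.6 CPM in control and 216 and 207 CPM in roxadustat libraries (1.06 ± 0.09, adjusted p = 7.09e-09). Replicates of Ldha and Pdk1 lay within a few percent of each other, and the groups were far apart in each. Slc16a3, the lactate exporter MCT4, was at only 3.31 and 2.83 CPM in control and 4.64 and 5.48 CPM in roxadustat libraries (0.71 ± 0.18, adjusted p = 0.0166), and lost its call without control replicate 2 and without roxadustat replicate 2 (adjusted p = 0.112 and 0.144).

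In the lists of gluconeogenesis, fatty acid oxidation and the respiratory chain the share of calls was at most 8.33% in either direction. Of all genes 2.73% were higher and 4.11% lower. Fatty acid synthesis, with 25% lower, is described among the other observations. Of 12 genes of gluconeogenesis and fructose use 1 was higher, Pcx, pyruvate carboxylase (842 and 907 CPM in control and 1253 and 1142 CPM in roxadustat libraries; 0.45 ± 0.08, adjusted p = 0.000632). Of 24 genes of fatty acid oxidation 1 was higher, Acot2, and 1 lower, Cpt1a. Of 30 nuclear genes of the respiratory chain 2 were lower, Cyc1 and Uqcrc1. For 18 of the 30 both roxadustat libraries lay below both control libraries, against 22.2% of all genes, and for 0 above. The median log2 fold change of these 30 was -0.13, or -0.08 with library size as the only scaling. The 7 tested protein genes of the mitochondrial genome had no call.

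Heme and iron genes showed 1 large fall. Hmox1, heme oxygenase, which breaks down heme (chromosome 8, 75093621 to 75100589), was at 210.5 and 222 CPM in control and 62.9 and 58.7 CPM in roxadustat libraries. This was 3.56-fold lower (log2 fold change -1.83 ± 0.13, adjusted p = 4.77e-09), with the smallest adjusted p of the fresh libraries alone (0.00574). In the same direction, though outside the iron list, the metallothionein genes Mt1 and Mt2, which bind zinc and copper, were at 209.8 and 228 CPM in control and 139 and 135 CPM in roxadustat libraries and at 75.1 and 99.6 CPM in control and 46.4 and 46.3 CPM in roxadustat libraries (adjusted p = 0.00415 and 2.24e-05). They were named after their values were seen. Alas1, the first enzyme of heme synthesis, was higher at 254 and 307 CPM in control and 410.1 and 431 CPM in roxadustat libraries (0.58 ± 0.09, adjusted p = 6.76e-05). Of the 27 tested iron and heme genes 1 was higher and 2 lower, Hmox1 and the ferroxidase gene Cp. These are 3.7% and 7.41%, against 2.73% and 4.11% of all genes. The ferritin gene Fth1 (1794 and 1832 CPM in control and 1839 and 1667 CPM in roxadustat libraries, adjusted p = 0.866) and the iron exporter gene Slc40a1 (113 and 115 CPM in control and 138 and 124 CPM in roxadustat libraries, adjusted p = 0.0866) were not called. With library size as the only scaling Slc40a1 was called higher (adjusted p = 0.0323).

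Globin transcripts were higher. Hbb-bs, adult beta globin, was at 31.0 and 36.9 CPM in control and 68.9 and 79.0 CPM in roxadustat libraries (1.12 ± 0.13, adjusted p = 3.51e-05, and 0.0398 in the fresh libraries alone), and Hbb-bt was at 4.54 and 5.99 CPM in control and 13.8 and 11.9 CPM in roxadustat libraries (1.29 ± 0.24, adjusted p = 0.00231). The alpha globin gene Hba-a2 was at 2.27 and 3.23 CPM in control and 5.63 and 5.93 CPM in roxadustat libraries (adjusted p = 0.0451), and its call ended without control replicate 1 and without either roxadustat replicate (adjusted p = 0.183, 0.169 and 0.167). Each pair is nearly identical in sequence, so reads may be split between its members. Of 13 tested erythroid genes 3 were higher and 1 lower, the transferrin receptor gene Tfrc (358 and 284 CPM in control and 256 and 246 CPM in roxadustat libraries, adjusted p = 0.00775, but 0.214 without control replicate 1 and 0.0697 without roxadustat replicate 2). The shares of the erythroid list were 23.1% higher and 7.69% lower, against 2.73% and 4.11% of all genes. The summed level of the list hardly moved, at 763.8 and 799 CPM in control and 746 and 734 CPM in roxadustat libraries. Tfrc, which fell, made up a large part of this sum, so the sum does not follow the globin genes. In libraries from sorted cells in bulk, here and in all that follows, more cells of a type and more RNA per cell cannot be told apart.

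Genes of the interstitial matrix had the largest rises of abundant transcripts. Of 19 collagen genes 9 were higher and 1 lower (47.4% and 5.26%, against 2.73% and 4.11% of all genes; median log2 fold change 0.65). Of 27 matricellular, elastic and proteoglycan genes 16 were higher and 1 lower (median 1.03), and of 23 genes of crosslinking enzymes, proteases and their inhibitors 13 were higher and 1 lower (median 0.77). Without control replicate 2, which stood apart, the counts were 9 and 1, 16 and 1, and 12 and 0. Over all 4 omissions they ranged from 8 to 9 higher collagens, 10 to 16 higher matricellular genes and 11 to 13 higher modifying genes. Of all the genes of these lists, P4ha1 was the only one called in the fresh libraries alone. Its rise and those of Lox, Plod2 and Loxl2 were also counted among the HIF targets, so these lists are not separate results.

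Col3a1, a fibrillar collagen of loose connective tissue (chromosome 1, 45311538 to 45349706), was at 115 and 171 CPM in control and 918 and 1590 CPM in roxadustat libraries (3.13 ± 0.22, adjusted p = 9.87e-08). The chains of type I collagen followed, with Col1a2 at 50.6 and 78.7 CPM in control and 292 and 489 CPM in roxadustat libraries (2.59 ± 0.21, adjusted p = 3.08e-07) and Col1a1 at 21.2 and 23.6 CPM in control and 102 and 156 CPM in roxadustat libraries (2.53 ± 0.44, adjusted p = 0.00251). In all 3 the groups were far apart, and roxadustat replicate 2 was above replicate 1. Smaller rises were those of Col14a1 (12.6 and 20.9 CPM in control and 44.7 and 60.1 CPM in roxadustat libraries), Col5a1 (13.4 and 21.9 CPM in control and 50.8 and 83.3 CPM in roxadustat libraries) and Col6a3 (13.4 and 19.0 CPM in control and 38.1 and 70.4 CPM in roxadustat libraries), a chain of the microfibrillar type VI collagen. Col5a2, the partner chain of Col5a1, was at 228 and 24.5 CPM in control and 194 and 293 CPM in roxadustat libraries. Its low level in control replicate 2 is the one that stood apart, it was not called (adjusted p = 0.409, 0.859 without that library and 6.93e-10 without control replicate 1), and it was singled out after its values were seen. Col18a1, a collagen of basement membranes, was the lower member at 270.5 and 265 CPM in control and 199 and 200.3 CPM in roxadustat libraries (-0.42 ± 0.09, adjusted p = 0.00341).

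Matricellular proteins act on cells rather than bear load. Postn, periostin, was at 8.50 and 9.08 CPM in control and 85.0 and 179 CPM in roxadustat libraries (chromosome 3, 54361109 to 54391037), 15.0-fold higher. Sparc was at 56.8 and 72.0 CPM in control and 133 and 194 CPM in roxadustat libraries (1.34 ± 0.14, adjusted p = 6.25e-07) and Fbln2, fibulin 2, at 9.61 and 17.6 CPM in control and 46.0 and 61.5 CPM in roxadustat libraries (1.98 ± 0.16, adjusted p = 1.14e-08). The roxadustat libraries were above the control libraries in all of these. Tnc, tenascin C, showed the most uneven rise, at 7.5 and 5.46 CPM in control and 12.8 and 42.8 CPM in roxadustat libraries (2.09 ± 0.37, adjusted p = 0.00248). Fn1, fibronectin, was at 20.5 and 37.1 CPM in control and 56.4 and 84.9 CPM in roxadustat libraries, and its call ended without control replicate 1 and without roxadustat replicate 2 (adjusted p = 0.181 and 0.204). Spp1, osteopontin, which injured tubule cells secrete, was the lower member (2010 and 1814 CPM in control and 1473 and 1429 CPM in roxadustat libraries; adjusted p = 0.0207). Its call ended without control replicate 1, without either roxadustat replicate (adjusted p = 0.0988, 0.0816 and 0.103) and after scaling by library size alone (0.0651).

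Elastic microfibrils were represented by Fbn1 at 43.7 and 78.8 CPM in control and 162 and 200.5 CPM in roxadustat libraries (1.57 ± 0.16, adjusted p = 1.28e-06) and Fbn2 at 0.325 and 0.526 CPM in control and 4.04 and 4.03 CPM in roxadustat libraries. Fbn2, the fibrillin of developing tissue, which is in none of the lists, had 5 and 8 counts in control and 61 and 53 counts in roxadustat libraries (3.23 ± 0.44, adjusted p = 4.59e-05, and 0.0398 in the fresh libraries alone). Lum, the proteoglycan lumican, was at 3.70 and 4.61 CPM in control and 17.2 and 31.0 CPM in roxadustat libraries (2.53 ± 0.25, adjusted p = 6.69e-06) and Vcan, versican, at 4.93 and 10.7 CPM in control and 21.0 and 24.7 CPM in roxadustat libraries (1.55 ± 0.19, adjusted p = 1.96e-05).

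Genes that shape the matrix rose beside its structural genes. Loxl1, a lysyl oxidase of elastic fibres, was at 4.8 and 6.32 CPM in control and 13.4 and 18.1 CPM in roxadustat libraries (1.49 ± 0.16, adjusted p = 5.58e-07), and Serpinh1, the collagen chaperone HSP47, at 157 and 123 CPM in control and 197 and 256 CPM in roxadustat libraries (0.69 ± 0.11, adjusted p = 0.000239). Rcn3, a protein of the collagen-secreting endoplasmic reticulum, was at 3.12 and 3.29 CPM in control and 11.5 and 16.8 CPM in roxadustat libraries (2.13 ± 0.17, adjusted p = 2.38e-09, and 0.0398 in the fresh libraries alone). The protease genes Mmp2 (3.77 and 8.89 CPM in control and 17.8 and 21.9 CPM in roxadustat libraries) and Mmp14 (5.97 and 7.70 CPM in control and 12.3 and 15.6 CPM in roxadustat libraries) rose as well (adjusted p = 6.12e-06 and 9.77e-06), as did the protease inhibitor gene Timp1, at 0.39 and 2.30 CPM in control and 9.87 and 14.4 CPM in roxadustat libraries (3.16 ± 0.38, adjusted p = 6.4e-05). Genes of synthesis, crosslinking, cleavage and its inhibition were thus among those called higher. Timp3 was the lower member at 1790 and 2989 CPM in control and 1474 and 1672 CPM in roxadustat libraries (adjusted p = 0.00649), and its call ended without control replicate 2 and without roxadustat replicate 1 (adjusted p = 0.245 and 0.119).

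The secreted proteins Lrrc17 and Cilp were called in both fits. Lrrc17 was at 1.30 and 0.921 CPM in control and 7.42 and 8.67 CPM in roxadustat libraries (2.85 ± 0.28, adjusted p = 1.24e-07), and Cilp, a protein of cartilage and of heart fibroblasts, at 2.08 and 2.90 CPM in control and 12.1 and 14.8 CPM in roxadustat libraries (2.43 ± 0.26, adjusted p = 5.56e-07). 9030619P08Rik, annotated as a pseudogene (chromosome 15, 75427606 to 75431829), was at 12.1 and 17.8 CPM in control and 133 and 146 CPM in roxadustat libraries (3.22 ± 0.16, adjusted p = 3.95e-09). Gm15564, an antisense gene, had the largest fitted rise under the naming rule but differed widely between replicates (1.49 and 2.5 CPM in control and 17.4 and 77.3 CPM in roxadustat libraries). Its call (adjusted p = 0.0424) ended without either control replicate and without roxadustat replicate 2 (adjusted p = 0.161, 0.149 and 0.285), and without strand its reads cannot be told from those of the opposite strand.

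Markers of interstitial fibroblasts were divided, with 47.4% higher and 5.26% lower, against 2.73% and 4.11% of all genes. Of 19 tested markers 9 were higher and 1 lower, with a median log2 fold change of 0.59, or 12 and 2 with a median of 1.42 without control replicate 2. Omitting control replicate 1 or roxadustat replicates 1 and 2 left 7, 8 and 8 higher. The 9 include Col3a1, Col1a1, Col1a2, Lum and Loxl1, which the matrix lists also hold. Of the others, Serpinf1 was at 6.04 and 10.3 CPM in control and 13.3 and 19.2 CPM in roxadustat libraries (0.99 ± 0.18, adjusted p = 0.000932). Pdgfra, the receptor that marks fibroblasts, was at 8.83 and 27.6 CPM in control and 22.5 and 26.0 CPM in roxadustat libraries and was not called (adjusted p = 0.517), and its fold change turned from 0.41 to -0.19 without control replicate 1. Dcn, decorin, showed the same pattern at 43.0 and 109.7 CPM in control and 97.4 and 133 CPM in roxadustat libraries (adjusted p = 0.311, and 0.00107 without control replicate 2), and Cd34 was at 18.5 and 24.9 CPM in control and 23.0 and 25.7 CPM in roxadustat libraries (adjusted p = 0.465, and 0.0378 without control replicate 2). In Pdgfra and Dcn the control libraries differed by more than the groups did. The summed level of the list was 652 and 1001 CPM in control and 1857 and 2899 CPM in roxadustat libraries, most of it collagen transcripts in the latter. The part of fibroblast number in the rises of the matrix genes was not tested. Pericyte and smooth muscle markers were lower in 25% of cases, against 4.11% of all genes. Of 12 pericyte and smooth muscle markers none was higher and 3 were lower, but none without roxadustat replicate 1. Myh11, smooth muscle myosin, was among the 3 (18.8 and 16.3 CPM in control and 6.49 and 12.2 CPM in roxadustat libraries; adjusted p = 0.00465, and 0.108 without roxadustat replicate 1).

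**Figure D3:**
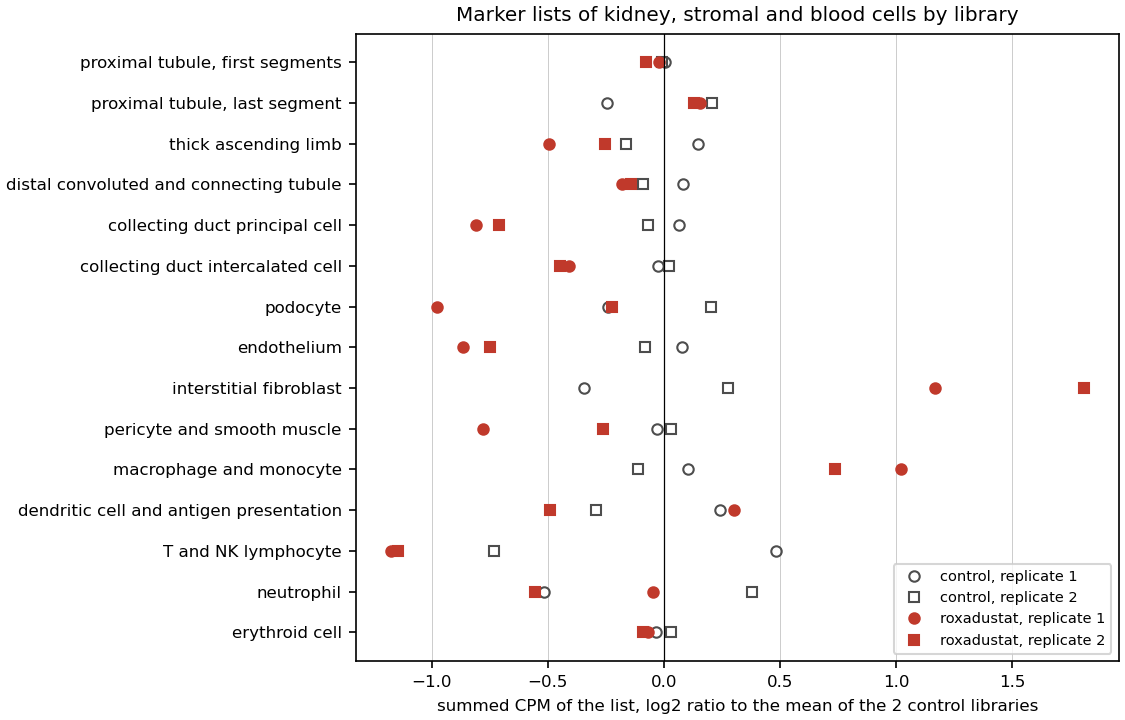
Summed CPM of each marker list in a library as a log2 ratio to the mean of the 2 control libraries (horizontal axis). The list of B lymphocytes and plasma cells is not drawn. Open grey symbols are control, filled red symbols roxadustat, circles replicate 1 and squares replicate 2. Fibroblast and macrophage lists lie to the right in both roxadustat libraries (macrophage 466 and 382 against 246 and 212 CPM). Endothelial and principal cell lists lie to the left. Lists of the first proximal tubule segments and of erythroid cells stay near 0. In the erythroid sum Tfrc, a large part of it, fell while globin genes rose.

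Macrophage transcripts were higher. Of 19 tested macrophage and monocyte markers 12 were higher and none lower, 63.2% against 2.73% of all genes, with a median log2 fold change of 1.14. Without control replicates 1 and 2 and roxadustat replicates 1 and 2 in turn, 10, 12, 9 and 10 were higher. Lyz2, lysozyme (chromosome 10, 117277331 to 117282321), was at 12.2 and 15.3 CPM in control and 50.5 and 61.0 CPM in roxadustat libraries (2.02 ± 0.11, adjusted p = 4.18e-12, and 0.0124 in the fresh libraries alone). Adgre1, the F4/80 antigen of tissue macrophages, was at 5.13 and 3.82 CPM in control and 11.9 and 11.3 CPM in roxadustat libraries (1.37 ± 0.19, adjusted p = 3.47e-05) and Csf1r, the receptor of their growth factor, at 31.4 and 47.0 CPM in control and 76.5 and 57.7 CPM in roxadustat libraries (0.78 ± 0.14, adjusted p = 0.000463). The groups did not overlap in any of these. The list summed to 246 and 212 CPM in control and 466 and 382 CPM in roxadustat libraries, and the part of macrophage number in these rises was not tested. Members of the list that were not called include Ccr2, a chemokine receptor of monocytes, at 4.8 and 2.96 CPM in control and 4.04 and 4.72 CPM in roxadustat libraries (adjusted p = 0.854), and Cx3cr1 at 2.01 and 0.79 CPM in control and 2.25 and 1.60 CPM in roxadustat libraries (adjusted p = 0.595).

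Several of the higher genes are those of resident, scavenging macrophages, though Cd163 and Cx3cr1 of the macrophage list were not called. Mrc1, the mannose receptor CD206, was at 6.69 and 12.9 CPM in control and 29.9 and 23.4 CPM in roxadustat libraries (1.45 ± 0.20, adjusted p = 5.12e-05). Siglec1, the sialic acid receptor CD169, had 4 and 3 counts in control and 64 and 39 counts in roxadustat libraries (3.94 ± 0.53, adjusted p = 1.85e-05, and 0.0398 in the fresh libraries alone). F13a1 was at 3.38 and 5.79 CPM in control and 23.3 and 19.1 CPM in roxadustat libraries (2.21 ± 0.26, adjusted p = 2.23e-06) and Folr2 at 1.75 and 1.97 CPM in control and 6.43 and 4.72 CPM in roxadustat libraries (1.58 ± 0.31, adjusted p = 0.00127). Lyve1, which also marks lymphatic vessels, was at 0.844 and 1.51 CPM in control and 9.27 and 3.88 CPM in roxadustat libraries (2.5 ± 0.32, adjusted p = 1.65e-05), higher in roxadustat replicate 1 than in replicate 2. F13a1 and Folr2 were chosen after their values were seen.

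The chemokine genes divided. Ccl6, Ccl8, Ccl9 and Ccl7, ligands that attract monocytes, were higher, and Cxcl16, Cxcl10 and Cx3cl1 were lower, of 20 tested (20% and 15%, against 2.73% and 4.11% of all genes). With control replicates 1 and 2 and roxadustat replicates 1 and 2 left out in turn, 3 were higher and 5 lower, 8 and 3, 4 and 1, and 3 and 3. Ccl6 (chromosome 11, 83587882 to 83593087) was at 2.99 and 2.30 CPM in control and 17.7 and 17.4 CPM in roxadustat libraries (2.73 ± 0.17, adjusted p = 1.77e-11). Ccl8 had 3 and 1 counts in control and 42 and 47 counts in roxadustat libraries (4.52 ± 0.52, adjusted p = 1.73e-06). Ccl9 was at 1.36 and 4.81 CPM in control and 13.0 and 11 CPM in roxadustat libraries (1.96 ± 0.26, adjusted p = 5.12e-05). Ccl6 and Ccl8 were called in both fits, and each was higher in both roxadustat libraries. Cxcl16 was at 54.1 and 50.9 CPM in control and 30.4 and 36.5 CPM in roxadustat libraries (-0.65 ± 0.11, adjusted p = 0.000255), and Cxcl10, which interferon induces, at 82.1 and 60.8 CPM in control and 36.0 and 50.3 CPM in roxadustat libraries (-0.73 ± 0.16, adjusted p = 0.00357). The call of Cxcl10 ended without control replicate 1 and without roxadustat replicate 1 (adjusted p = 0.0696 and 0.137).

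Complement genes rose with them, 11 of 19 with none lower (median log2 fold change 0.88), or 9, 11, 8 and 9 with the libraries left out in the same order. The 11 are 57.9% of the list, against 2.73% of all genes, and C1qa, C1qb and C1qc among them were also counted as macrophage markers. The genes of the C1q subunits, which macrophages make, were at 7.99 and 7.31 CPM in control and 28.3 and 16.6 CPM in roxadustat libraries for C1qa, at 7.08 and 6.25 CPM in control and 20.5 and 13.6 CPM in roxadustat libraries for C1qb and at 6.43 and 6.06 CPM in control and 19.5 and 12.1 CPM in roxadustat libraries for C1qc (adjusted p = 7.69e-06, 0.000171 and 7.56e-05). In all 3, roxadustat replicate 1 was above replicate 2, the reverse of the order in the collagens. Cfp, properdin, was at 2.53 and 3.55 CPM in control and 8.41 and 8.14 CPM in roxadustat libraries (1.44 ± 0.20, adjusted p = 2.56e-05). Complement genes that fibroblasts express include Serping1, the C1 inhibitor (12.7 and 18 CPM in control and 24.4 and 32.3 CPM in roxadustat libraries; 0.88 ± 0.14, adjusted p = 0.000234), and C4b (8.96 and 6.32 CPM in control and 16.2 and 18.3 CPM in roxadustat libraries; 1.17 ± 0.22, adjusted p = 0.000992). C3 was not called, at 54.7 and 119.5 CPM in control and 118 and 173 CPM in roxadustat libraries (adjusted p = 0.0962), and was called higher without control replicate 2 (adjusted p = 1.1e-05).

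Other blood cell lists had fewer tested members and calls that rested on single libraries. The dendritic cell and antigen presentation list had 8.33% higher calls, against 2.73% of all genes. Of 12 dendritic cell and antigen presentation genes 1 was higher, Clec10a, which macrophages also express, and the class II genes H2-Aa (59.4 and 48.3 CPM in control and 72.5 and 39.3 CPM in roxadustat libraries) and Cd74 (99.3 and 77.5 CPM in control and 106 and 58.6 CPM in roxadustat libraries) were not called (adjusted p = 0.933 and 0.864). T and NK cell markers had 2 lower of 10, Lck and Cd3g, neutrophil markers 2 lower of 6, S100a8 and S100a9, and B and plasma cell markers 1 lower of 5, Jchain. These shares of lower calls (20%, 33.3% and 20%) lie above the 4.11% of all genes. Without roxadustat replicate 1 none of these genes was called, nor without control replicate 2 in the neutrophil and B cell lists. Jchain, at 1.69 and 10.9 CPM in control and 1.13 and 0.913 CPM in roxadustat libraries, is among the genes in which control replicate 2 stood apart (adjusted p = 0.586 without it). The list of T and NK markers summed to 26.6 and 11.5 CPM in control and 8.41 and 8.60 CPM in roxadustat libraries, and 8 of its 18 genes were too low to be tested.

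**Figure D4:**
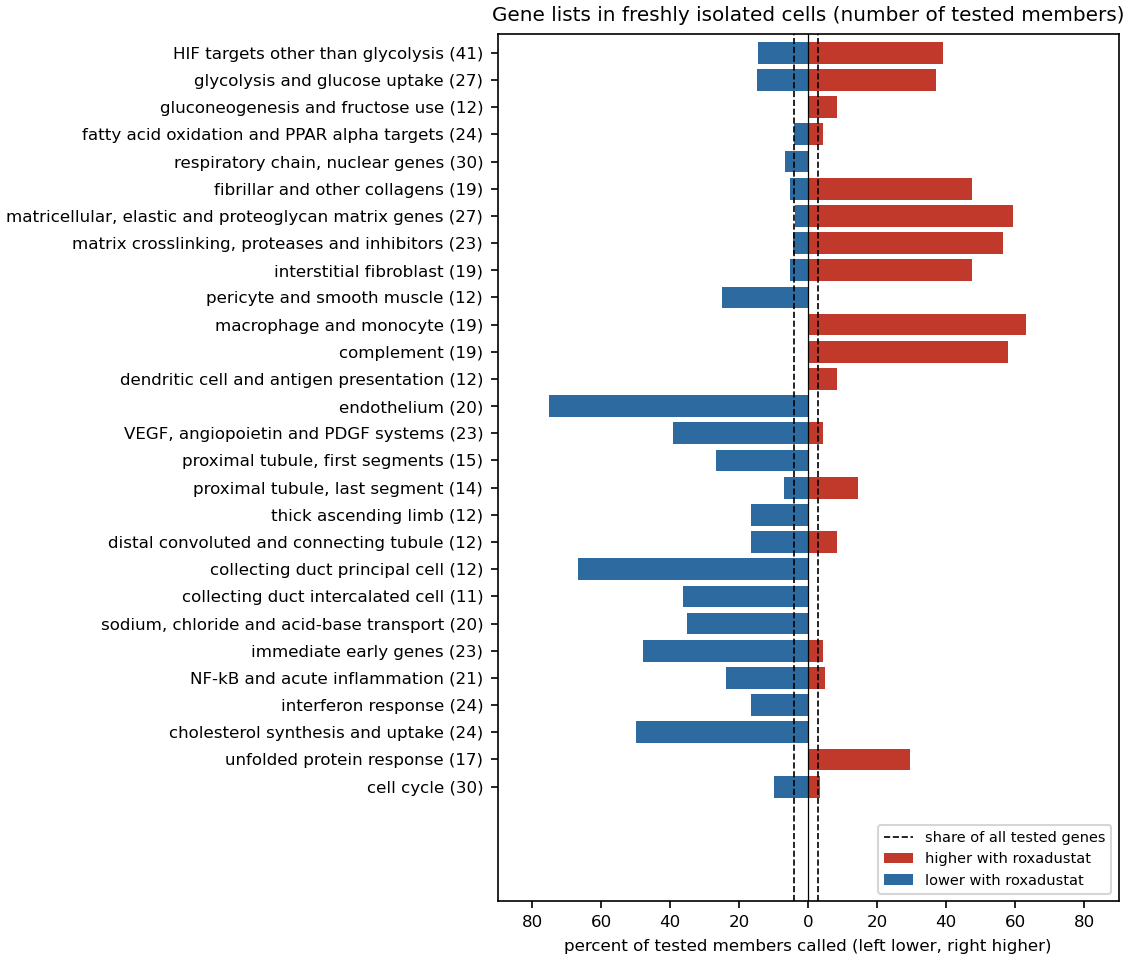
Share of the tested members of selected gene lists (percent, number of tested members in parentheses) called in roxadustat cells. Blue bars to the left are lower calls and red bars to the right are higher calls. The chemokine, iron, erythroid and tubule injury lists are among those not drawn. Dashed lines mark the shares over all tested genes, 2.73% higher and 4.11% lower. Matrix, fibroblast, macrophage and complement lists extend to the right, and endothelial, principal cell, cholesterol and immediate early lists to the left.

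Endothelial transcripts were lower. Of 20 endothelial markers 15 were lower and none higher (75% against 4.11% of all genes), with a median log2 fold change of -0.84. With control replicates 1 and 2 and roxadustat replicates 1 and 2 left out in turn the counts were 11, 12, 5 and 10. The median without roxadustat replicate 1 was -0.79, and fewer of all tested genes were called without this library too. For 19 of the 20 genes both roxadustat libraries lay below both control libraries, against 22.2% of all genes. None was called in the fresh libraries alone.

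The receptors of vessel growth factors are examples. Kdr, the main VEGF receptor, was at 47.7 and 41.3 CPM in control and 25.2 and 25.0 CPM in roxadustat libraries (-0.83 ± 0.14, adjusted p = 0.000313) and Flt1, the VEGF receptor that acts as a decoy, at 41.0 and 36.9 CPM in control and 22.1 and 22.1 CPM in roxadustat libraries (-0.82 ± 0.10, adjusted p = 8.58e-06). Ptprb, a phosphatase of endothelial junctions, was at 56.9 and 46.1 CPM in control and 26.1 and 28.4 CPM in roxadustat libraries (-0.92 ± 0.12, adjusted p = 1.65e-05). These 3 remained called without each library. Eng, endoglin, which is a marker of endothelium and of mesenchymal stromal cells alike, was at 15.5 and 13.8 CPM in control and 5.37 and 6.09 CPM in roxadustat libraries (-1.35 ± 0.25, adjusted p = 0.00213), with its call ending without roxadustat replicate 1 (adjusted p = 0.0533). Pecam1 was at 44.7 and 35.9 CPM in control and 22.1 and 24.3 CPM in roxadustat libraries and Emcn at 29.4 and 24.7 CPM in control and 17.2 and 18.8 CPM in roxadustat libraries, and both calls ended without roxadustat replicate 1 (adjusted p = 0.0863 and 0.103), that of Emcn also without control replicate 1 (0.0654).

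Of 23 genes of the VEGF, angiopoietin and PDGF systems 9 were lower and 1, Apln, was higher (39.1% and 4.35%, against 4.11% and 2.73% of all genes). Their median log2 fold change was -0.31. Flt1, Kdr and Tek, among the lower ones, are also in the endothelial list. The 9 include 6 receptors or coreceptors, of which Nrp2 was at 10.3 and 12.3 CPM in control and 5.50 and 5.32 CPM in roxadustat libraries (-1.06 ± 0.13, adjusted p = 3.18e-06). Of the ligands, Pdgfb, which endothelial cells secrete to hold pericytes (chromosome 15, 79995874 to 80014977), was at 43.5 and 43.5 CPM in control and 23.5 and 24.0 CPM in roxadustat libraries (-0.87 ± 0.10, adjusted p = 2.17e-06, and 0.0398 in the fresh libraries alone). Angpt2, angiopoietin 2, was at 10.1 and 8.56 CPM in control and 3.18 and 5.32 CPM in roxadustat libraries (-1.15 ± 0.18, adjusted p = 0.000147). Pdgfb had nearly equal replicates in each group and no overlap. The list without roxadustat replicate 1 had 5 lower members. The endothelial markers summed to 453 and 406 CPM in control and 236 and 255 CPM in roxadustat libraries. Whether the falls of the receptors go beyond that of other endothelial transcripts was not tested.

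Tubule transcripts differed by segment. Lower calls made up 66.7% of principal cell, 36.4% of intercalated cell and 26.7% of first proximal markers, against 4.11% of all genes. They were 16.7% in the thick ascending limb and in the distal list, and 7.14% in the last proximal segment. Higher calls were 14.3% in the last proximal segment and 8.33% in the distal list, against 2.73%, and absent from the others. Tubule transcripts were abundant although the sort was not for tubule cells, with Slc12a1, the salt transporter of the thick ascending limb, at 4873 and 3908 CPM in control and 2757 and 3495 CPM in roxadustat libraries. Principal cells of the collecting duct, which reabsorb water and sodium, had the clearest falls, with 8 of 12 lower and none higher (66.7% against 4.11%; median log2 fold change -0.68), and 6, 7, 5 and 6 lower with the libraries left out in turn. Intercalated cells of the same duct, which secrete acid and base, had 4 of 11 lower (median -0.43), but 1 of them without roxadustat replicate 1.

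Aqp2, the water channel that vasopressin regulates (chromosome 15, 99579055 to 99584547), was at 195 and 149.9 CPM in control and 64.3 and 73.0 CPM in roxadustat libraries (-1.33 ± 0.13, adjusted p = 2.45e-07). Aqp3 was at 125 and 115 CPM in control and 59.5 and 71.2 CPM in roxadustat libraries (-0.88 ± 0.13, adjusted p = 7e-05) and Hsd11b2, which protects the aldosterone receptor from glucocorticoids, at 68.0 and 78.2 CPM in control and 43.9 and 41.0 CPM in roxadustat libraries (-0.78 ± 0.11, adjusted p = 1.85e-05). Scnn1g, a subunit of the sodium channel ENaC, was at 95.3 and 98.9 CPM in control and 50.3 and 61.2 CPM in roxadustat libraries (-0.80 ± 0.13, adjusted p = 0.000274). In these genes the replicates were nearer to each other than the groups, which did not overlap, and the calls held without each library. Aqp4 (18.8 and 12 CPM in control and 5.56 and 6.31 CPM in roxadustat libraries) and the urea transporter gene Slc14a2 (20.0 and 9.81 CPM in control and 4.44 and 5.55 CPM in roxadustat libraries) fell too (adjusted p = 0.000702 and 0.0021), the latter with its call ending without control replicate 1 and without roxadustat replicate 1 (adjusted p = 0.0626 and 0.0576). Slc26a4, pendrin, of intercalated cells was at 149 and 149.7 CPM in control and 102 and 109.8 CPM in roxadustat libraries (-0.50 ± 0.10, adjusted p = 0.00258, and 0.0606 without roxadustat replicate 1).

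The other segments had fewer calls. The list of the first proximal segments summed to 24920 and 24690 CPM in control and 24460 and 23520 CPM in roxadustat libraries, with 4 of 15 lower. Of these, Gatm, which makes a creatine precursor, was at 1186 and 787 CPM in control and 576 and 591 CPM in roxadustat libraries (-0.76 ± 0.12, adjusted p = 0.000223), and Slc5a2, the glucose transporter SGLT2, at 533 and 353 CPM in control and 266 and 290.3 CPM in roxadustat libraries (-0.67 ± 0.14, adjusted p = 0.00357). The call of Slc5a2 ended without roxadustat replicate 1 (adjusted p = 0.0668). Of the last proximal segment 2 of 14 were higher and 1 lower, or 6 and 0 without control replicate 2. Slc6a18, an amino acid transporter, was at 369.6 and 360.3 CPM in control and 708 and 607 CPM in roxadustat libraries (0.85 ± 0.09, adjusted p = 2.07e-07) and Cyp7b1 at 26.2 and 36.1 CPM in control and 19.1 and 10.0 CPM in roxadustat libraries (-1.08 ± 0.22, adjusted p = 0.00452), with the call of Cyp7b1 ending without control replicate 2 (adjusted p = 0.0531). The thick ascending limb had 2 of 12 lower, and Umod and Slc12a1 were not called (adjusted p = 0.605 and 0.225). In the distal convoluted and connecting tubule 1 of 12 was higher and 2 lower, of which Trpv5, a calcium channel, was at 82.2 and 76.7 CPM in control and 46.9 and 54.6 CPM in roxadustat libraries (-0.65 ± 0.13, adjusted p = 0.00176, and 0.0637 without roxadustat replicate 1).

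Of 20 genes of sodium, chloride and acid-base transport 7 were lower and none higher (median log2 fold change -0.25), and 2 were lower without roxadustat replicate 1 and 3 after scaling by library size alone. The 7 lower with all libraries are 35% of the list, against 4.11% of all genes. Car2, the cytosolic carbonic anhydrase, was at 510.5 and 434 CPM in control and 321 and 355 CPM in roxadustat libraries (-0.48 ± 0.08, adjusted p = 0.000117). Its call held without each library. Of 22 genes of tubule injury and repair 3 were higher and 5 lower (13.6% and 22.7%, against 2.73% and 4.11% of all genes). Vim, vimentin, which fibroblasts also express, was higher at 44.3 and 51.0 CPM in control and 66.2 and 103 CPM in roxadustat libraries (0.82 ± 0.12, adjusted p = 6.33e-05), and Clu, clusterin, lower at 495 and 526 CPM in control and 356 and 377 CPM in roxadustat libraries (-0.48 ± 0.08, adjusted p = 0.000145). Havcr1, the injury marker KIM-1, was at 3.90 and 17.1 CPM in control and 4.97 and 6.47 CPM in roxadustat libraries, its highest level being in control replicate 2, and Lcn2 at 6.23 and 6.19 CPM in control and 7.02 and 6.54 CPM in roxadustat libraries. Neither was called (adjusted p = 0.279 and 0.824), but Havcr1 was lower without control replicate 1 (5.87e-09).

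Immediate early genes, which rise within minutes of a stimulus and during tissue digestion, were lower, 11 of 23 with 1 higher (47.8% against 4.11%; median log2 fold change -0.34). The lower counts were 10, 7, 6 and 7 with the libraries left out in turn. Nr4a1 was at 259.7 and 297 CPM in control and 184 and 189 CPM in roxadustat libraries (-0.58 ± 0.09, adjusted p = 0.000117), Atf3 at 1691 and 1724 CPM in control and 1104 and 1213 CPM in roxadustat libraries (-0.56 ± 0.10, adjusted p = 0.00056) and Klf6 at 1391 and 1469 CPM in control and 1132 and 973 CPM in roxadustat libraries (-0.44 ± 0.07, adjusted p = 0.000119). These 3 falls were of less than 2-fold, with no overlap between groups. Klf4 was the higher one, at 114 and 114 CPM in control and 173 and 193 CPM in roxadustat libraries (0.68 ± 0.10, adjusted p = 3.62e-05), and Jun was not called (1433 and 1543 CPM in control and 1557 and 1466 CPM in roxadustat libraries, adjusted p = 0.929). Of the NF-kB and acute inflammation list 5 of 21 were lower and 1 higher, but without control replicate 2 this turned to 3 lower and 5 higher, and without roxadustat replicate 1 it was 5 and 3. With all libraries the shares of this list were 23.8% lower and 4.76% higher, against 4.11% and 2.73% of all genes. Socs3, an inhibitor of cytokine signals, was at 395 and 384 CPM in control and 266 and 271 CPM in roxadustat libraries (-0.54 ± 0.09, adjusted p = 0.000137) and Relb at 26.2 and 34.5 CPM in control and 18 and 18.8 CPM in roxadustat libraries (-0.72 ± 0.12, adjusted p = 0.00015). The interferon response list had 16.7% lower and none higher. Of 24 interferon response genes 4 were lower (8 without control replicate 2, 2 without control replicate 1 or roxadustat replicate 1), Gbp2, Stat2, Cxcl10 and Ifit2, with Gbp2 at 32.9 and 21.9 CPM in control and 10.9 and 15.0 CPM in roxadustat libraries (-1.09 ± 0.16, adjusted p = 6.75e-05).

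Genes of cholesterol synthesis and uptake were lower in 12 of 24 cases with none higher (50% against 4.11%; median log2 fold change -0.41), and in 8, 17, 11 and 8 cases with the libraries left out in turn. Without control replicate 1 and without control replicate 2, 1 gene was higher. Insig1, which holds the sterol sensor in place, was at 93.7 and 61.9 CPM in control and 43.8 and 42.0 CPM in roxadustat libraries (-0.86 ± 0.13, adjusted p = 0.000131), and Nsdhl, an enzyme of late synthesis, at 49.4 and 68.3 CPM in control and 34.1 and 33.2 CPM in roxadustat libraries (-0.81 ± 0.11, adjusted p = 3.69e-05). In both the roxadustat libraries were close to each other and below both control libraries, which differed more. Hmgcs1, an enzyme of early synthesis, was not called at 1027 and 1376 CPM in control and 1358 and 1253 CPM in roxadustat libraries (adjusted p = 0.545), though it was called higher without control replicate 2 (0.00777). The sterol regulatory element letters TCACNCCAC, on either strand, are in 1.48% of the promoter windows of tested genes, in 0 of 6 lower members and in 1 of 10 not called.

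The unfolded protein response list had 5 of 17 higher, but 9, 3, 7 and 0 with the libraries left out in turn, so its count depends on single libraries and was lost without roxadustat replicate 2. Hspa5, the main chaperone of the endoplasmic reticulum, was at 1323 and 1015 CPM in control and 1325 and 1825 CPM in roxadustat libraries (adjusted p = 0.0369, 0.354 without control replicate 2 and 0.538 without roxadustat replicate 2). With all libraries the 5 are 29.4% of the list, against 2.73% of all genes. Cell cycle genes had 1 of 30 higher and 3 lower (3.33% and 10%, against 2.73% and 4.11% of all genes). Their median log2 fold change was 0.24, and 0.74 without control replicate 1. Among clock genes 5.56% were higher and 16.7% lower, and among TGF-beta and BMP signalling genes 19.2% were lower. Of 18 clock genes 1 was higher and 3 lower, of 11 genes of the renin-angiotensin system none was called, and of 26 genes of TGF-beta and BMP signalling 5 were lower, or 4, 2, 1 and 2 with the libraries left out in turn and 2 with library size as the only scaling. Dbp, an output gene of the clock, was at 14.2 and 30.1 CPM in control and 5.23 and 12.9 CPM in roxadustat libraries, and its call (adjusted p = 0.0176) ended without control replicate 2 and without roxadustat replicate 1 (adjusted p = 0.2 and 0.167).

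The gene of the sorting antigen, Ly6a, was at 549.8 and 496 CPM in control and 668 and 715 CPM in roxadustat libraries (0.40 ± 0.09, adjusted p = 0.00415, and 0.0528 without roxadustat replicate 2). For Nt5e, whose product CD73 is found on erythropoietin-producing cells, the levels were 184 and 212 CPM in control and 274 and 218 CPM in roxadustat libraries (adjusted p = 0.0294), a call that ended without control replicate 1 and without roxadustat replicate 1 (adjusted p = 0.209 and 0.558). Pdgfrb was at 6.30 and 6.06 CPM in control and 3.97 and 6.09 CPM in roxadustat libraries and was not called (adjusted p = 0.313), but was lower without roxadustat replicate 2 (0.0451). Thy1, a mesenchymal marker, was at 3.51 and 1.51 CPM in control and 1.59 and 1.60 CPM in roxadustat libraries (adjusted p = 0.215, and 0.00519 without control replicate 2). Of the markers by which mesenchymal stem-like cells are usually defined, Ly6a, Nt5e and Cd44 (5.26 and 7.11 CPM in control and 8.28 and 13.0 CPM in roxadustat libraries; adjusted p = 0.0225) were thus higher, Eng was lower and Thy1 was not called. The call of Cd44 ended without control replicate 1 and without roxadustat replicate 2 (adjusted p = 0.206 and 0.329).

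The effect in fresh cells was last set against that in cells cultured with roxadustat for 7 days. The fresh and the cultured effect share no library. Injection of the mouse and addition to the medium cannot be told apart from time in culture. After 7 days 47.7% of tested genes were called (24.1% higher, 23.6% lower). By a test of the difference itself, the effects of the fresh and 7-day cells differed for 5418 genes (28.9%). The log2 fold change, sign included, was higher at day 7 for 15.5% of tested genes and lower for 13.4%. Of the 511 genes higher in fresh cells 170 were also higher at day 7, 206 were lower and 135 were not called. Of the 769 lower ones 240 were also lower, 260 were higher and 269 were not called. Among genes that rose in fresh cells, falls at day 7 were thus more frequent than rises.

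**Figure D5:**
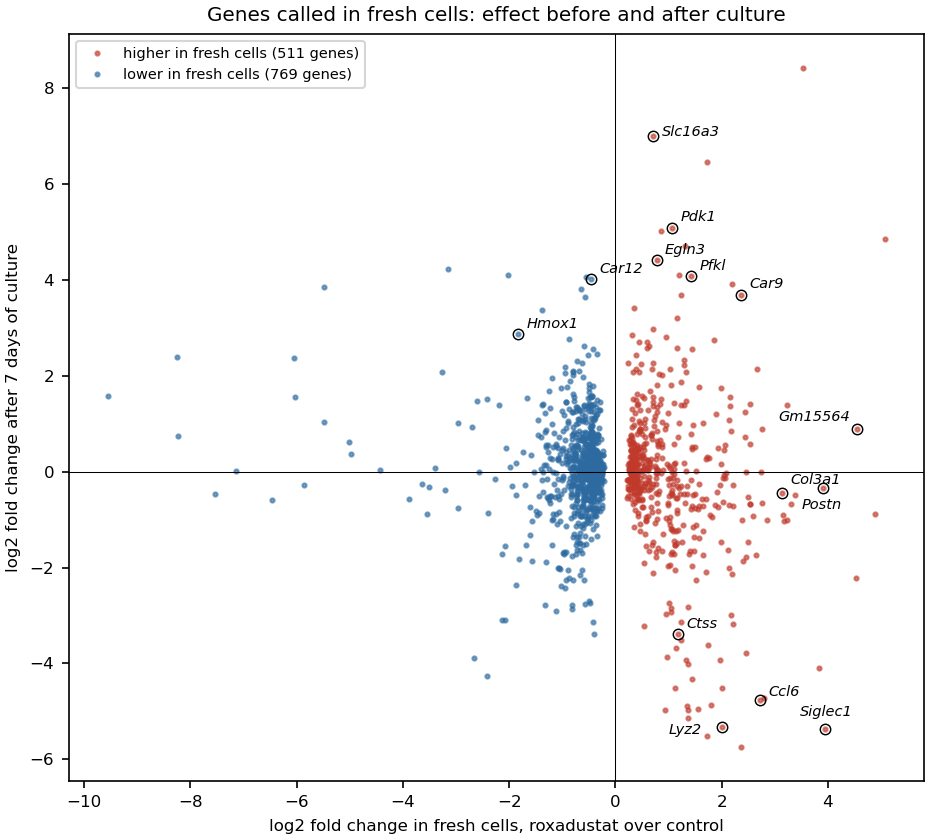
Log2 fold change after 7 days of culture with roxadustat (vertical axis) against that in fresh cells (horizontal axis) for the 511 genes called higher (red) and the 769 called lower (blue) in fresh cells, with example genes circled. Among the examples, Pdk1 of the glycolysis list lies at the upper right (1.06 and 5.08). Car12, a HIF target called lower in fresh cells, lies at the upper left, and the macrophage gene Lyz2 at the lower right (2.02 and -5.33).

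HIF targets and glycolysis genes had the larger effect in culture. Of 41 HIF targets 37 were higher at day 7, against 16 in fresh cells. The log2 fold change was higher at day 7 than in fresh cells for 33 and lower for 5. For 23 of 27 glycolysis genes it was higher and for none lower. Pdk1 rose by 5.08 at day 7 against 1.06 in fresh cells (log2 scale; difference 4.02 ± 0.12, adjusted p = 1.85e-19), and P4ha1 by 2.23 against 1.29 (difference 0.94 ± 0.09, adjusted p = 1.06e-08). Vegfa and Slc2a1, not called in fresh cells, rose by 2.42 and 2.36 in culture (adjusted p of the difference 3.79e-17 and 5.73e-17). The lower HIF targets and glycolysis genes of fresh cells reversed for Pfkfb3 (-0.79 and 2.11) and Car12 (-0.45 and 4.02).

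Fibroblast and macrophage markers went from a positive to a negative effect in culture. Their median log2 fold changes were 0.59 and 1.14 in fresh cells and -0.66 and -3.78 at day 7. The 19 fibroblast markers had 9 higher in fresh cells and 2 at day 7, where 9 were lower. The log2 fold change was lower at day 7 than in fresh cells for 12. For macrophage markers 12 of 19 were higher in fresh cells and 16 lower at day 7, with the log2 fold change lower at day 7 for 16. Of the matrix lists, 5 of 19 collagens were higher and 11 lower at day 7, 5 and 12 of 27 matricellular genes, and 11 and 12 of 23 crosslinking genes, P4ha1 among the higher. Col3a1 rose by 3.13 and then stood at -0.44 (difference -3.57 ± 0.26, adjusted p = 7.52e-09). Endothelial markers, 15 of 20 lower in fresh cells, had 7 higher and 4 lower at day 7. Their median log2 fold change went from -0.84 to 0.25, and the log2 fold change was higher at day 7 for 11 and lower for 2. The principal cell markers, 8 of 12 lower in fresh cells, had 4 higher and none lower at day 7. Cholesterol genes were lower in 11 of 24 cases at day 7, and of immediate early genes 9 of 23 were higher and 6 lower. At day 21 the effects differed from those in fresh cells for 8301 genes (44.3%). The log2 fold change was higher at day 21 for 4105 and lower for 4196, or 6225 and 2513 after scaling by library size alone.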

How the data were processed

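The authors deposited raw counts per gene for 20 libraries of poly(A) RNA, made with a kit that does not keep the strand. Per the submitters' processing notes the tools were bcl2fastq, STAR 2.5.2a and featureCounts 1.5.0-p1 with the mm10 build. How featureCounts treated reads that fit several genes is not given in the sources used here. Of 47729 genes 47310 were matched to a symbol. Counts were scaled by TMM, filtered with filterByExpr, and tested with edgeR 4.0.16 (robust quasi-likelihood test, Benjamini-Hochberg adjustment, R 4.3.3) in a design of 6 groups, with day 0, day 7 and day 21 effects and their differences as contrasts. The p-values are two-sided and were adjusted over all tested genes. The test was first run on simulated counts drawn with the same spread in every group. That run therefore cannot show how calls behave under the larger spread of the fresh control pair. Alternatives were other scalings, filters, DESeq2 1.42.0, the 4 fresh libraries alone, a replicate block and leaving out each fresh library.

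The gene lists and named genes were chosen with earlier results of these data known. By rule, the text names up to 12 largest rises and falls with no overlap between groups and at least 5 CPM in the higher group, genes called in both fits, up to 4 called members per list by p, genes of oxygen sensing and of the sort, and the 5 clearest reversals in culture. Other members of lists were named after their values were seen. Promoter windows are from RefSeq. Results for some genes are not reported here.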

Additional observations from a re-analysis of the deposited data

Results flagged for a closer look

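In 5 genes the effect of roxadustat after 7 days of culture was called in the opposite direction to that in fresh cells, and edgeR's test of the difference itself had the smallest p of all such genes of at least 5 CPM. Ccl6, a monocyte chemokine, had an effect of 2.73 on the log2 scale in fresh cells and -4.77 at day 7, a difference of -7.49 (adjusted p = 1.02e-20). Lyz2, lysozyme of macrophages, went from 2.02 to -5.33, a difference of -7.35 (adjusted p = 1.06e-23). Ctss, the lysosomal protease cathepsin S, was at 10.8 and 7.64 CPM in control and 24.7 and 16.8 CPM in roxadustat libraries when fresh and went from 1.17 to -3.39, a difference of -4.57 (adjusted p = 8.75e-16). Hmox1, heme oxygenase, went from -1.83 to 2.86, a difference of 4.69 (adjusted p = 9.42e-16). Car12, a carbonic anhydrase, went from -0.45 to 4.02, a difference of 4.47 (adjusted p = 6.35e-19). All 5 were chosen for this reversal, so their differences describe these genes and give no independent support.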

How the results depend on the processing

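With 2 libraries per group the precision rests on the spread borrowed from the cultured libraries, which is smaller than that of the fresh control pair. Low genes are limited by depth, 3 counts being 0.195 to 0.228 CPM. The count of calls (511 higher, 769 lower) fell to 19 and 4 in the 4 fresh libraries alone, and to 36 and 29 when these were fitted with the genes of the fit of all libraries, an alternative chosen after seeing the data. Leaving out 1 library gave 299 to 639 higher and 269 to 975 lower genes. The number of genes with a difference between day 21 and fresh cells became 6225 higher and 2513 lower with library size alone. Calls were 509 and 796 with DESeq2 size factors, 533 and 1122 without a filter, 540 and 797 with a mean of at least 1 CPM, and 550 and 844 with DESeq2. With the replicate number as a block the calls were 409 and 562. Deviations of same-numbered libraries hardly correlated (0.058 over 18731 genes). This correlation cannot decide whether same-numbered libraries were handled together.

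When 1 library was left out, list medians (log2) ranged as follows: HIF targets 0.10 to 0.24, cholesterol genes -0.55 to -0.27, endothelium -0.90 to -0.78, principal cell -0.78 to -0.59, intercalated cell -0.52 to -0.30, fibroblast 0.24 to 1.42, macrophage 0.95 to 1.29, complement 0.65 to 0.95, collagens 0.32 to 0.62, matricellular genes 0.65 to 1.29, crosslinking genes 0.49 to 1.16, immediate early genes -0.38 to -0.24, VEGF system -0.60 to -0.34 and transport genes -0.28 to -0.14. The glycolysis median ranged from -0.05 to 0.17 and was -0.01 without a filter, so its sign is not settled. Library size alone gave 0.06 for glycolysis, 0.70 for collagens, -0.28 for immediate early genes and -0.19 for transport. A mean of at least 1 CPM gave -0.75 for principal cells and 1.36 for macrophages. Among single genes, Pdgfra (0.41) ranged from -0.19 without control replicate 1 to 1.46 without control replicate 2, and Gsta1, a glutathione transferase (-3.14), from -4.07 to 0.12 without these libraries in turn. The cause of these moves was not tested.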

Other observations

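Some lists were not described above. Of 16 genes of fatty acid synthesis 1 was higher, Me1, malic enzyme (245 and 282 CPM in control and 382 and 396 CPM in roxadustat libraries; log2 fold change 0.56 ± 0.08, edgeR adjusted p = 5.72e-05), and 4 were lower, among them Scd2, a desaturase (153 and 125 CPM in control and 102 and 82.8 CPM in roxadustat libraries; -0.59 ± 0.10, adjusted p = 0.000289). These are 6.25% and 25% of the list, against 2.73% and 4.11% of all genes, and the lower count ranged from 1 to 5 with 1 library left out. Of 17 ATF4 and amino acid stress genes 2 (11.8%) were lower, Slc7a5 and Slc3a2, which encode the chains of 1 amino acid transporter. Slc7a5 was at 8.05 and 10.9 CPM in control and 6.49 and 6.31 CPM in roxadustat libraries and Slc3a2 at 220.5 and 195 CPM in control and 150.5 and 148 CPM in roxadustat libraries (adjusted p = 0.0478 and 9.26e-05), and the call of Slc7a5 ended without control replicate 2 and without roxadustat replicates 1 and 2 (adjusted p = 0.444, 0.193 and 0.181) and with library size as the only scaling (0.066). Of 21 antioxidant genes 2 (9.52%) were lower, Srxn1 (228 and 218 CPM in control and 154 and 164 CPM in roxadustat libraries; adjusted p = 4.4e-05) and Gsta1 (0.13 and 2.5 CPM in control and 0.133 and 0.152 CPM in roxadustat libraries), the latter with an adjusted p of 0.0466 that became 0.994 without control replicate 2. Of 16 heat shock genes 1 (6.25%) was higher, and of 10 podocyte markers 1 (10%) was lower, Podxl, which endothelium also expresses. Of 14 sex-linked or sex-dimorphic kidney genes 2 were higher and 1 lower (14.3% and 7.14%), and the Y-linked gene Ddx3y was present in all 4 libraries at 165 and 162 CPM in control and 183 and 195 CPM in roxadustat libraries (adjusted p = 0.179).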
